A study of Drosophila melanogaster with 3 samples.

Results

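Uextra is not a chromosome. In FlyBase release 5 of the Drosophila melanogaster genome it is an artificial sequence in which small scaffolds without a chromosomal place were joined end to end, and U is a separate sequence of the same kind. Of the 15755 HP1 peaks in the deposited list, 8329 (52.9%) have Uextra as their sequence name, and these peaks are described here. They were chosen by that name alone, and no measured value entered the choice. The peaks of U (2070) and of the 6 Het sequences (2831), which hold separately assembled heterochromatin, serve for comparison.

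Heterochromatin protein 1 (HP1) is a chromatin protein that binds the methylated tail of histone H3 and coats the compact, repeat-rich DNA around fly centromeres and on most of chromosome 4. Repeated DNA of this kind is hard to assemble, so much of it ended up in short scaffolds with no known place. HP1 is known for silencing genes moved next to heterochromatin and for its part in keeping transposable elements inactive.

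The study measured HP1 by chromatin immunoprecipitation and sequencing (ChIP-seq) in whole embryos of 8 to 16 h, with 1 input DNA sample and 2 ChIP replicates made with an Abcam rabbit polyclonal antibody. All samples came from the strain Y cn bw sp and share its full genotype. It lists y[1] and oc[R3.2] first. The next alleles are Gr22b[1], Gr22d[1], cn[1] and CG33964[R4.2], together with bw[1] and sp[1]. The last are LysC[1], lab[R4.2] and MstProx[1], with GstD5[1] and Rh6[1]. Embryos were cross-linked in 1.8% formaldehyde for 15 min, and nothing in the labels tells whether the replicates were separate collections. Whole embryos mix all cell types of that age, so a peak cannot be assigned to a cell type. The list names no replicate and the read depth is unknown. The values therefore carry no error between samples, and no test was made. A difference below is a difference between peaks of this 1 list. The placing of reads from repeats was not described in the labels or headers, and its part in these values was not tested.

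Uextra carried 288.3 HP1 peaks per Mb over the 28891741 bp up to the end of its last peak. That was 1.40 times the density of U (206 per Mb) and 0.940 times that of the Het sequences (306.6 per Mb). By bases covered the order was different. Peaks covered 15.2% of Uextra, 18.3% of U and 33.3% of the Het sequences, so Uextra had more peaks than U on each Mb but fewer bases under them. The ratio to U was 0.831 by covered bases. The ratio to Het also depends on the peaks counted: it was 1.11 when only scores from 20.96 up, the median of the whole list, were kept (the score limit) and 1.85 after peaks under 1 kb apart had been merged.

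The peaks were not spread evenly along Uextra. Its first Mb held 398 peaks and its second Mb 424, the highest count of any 1 Mb window. The third Mb held 308. In windows 4 to 27 the count stayed between 235, the lowest of a full window, in window 4, and 316. The last window, which ends with the last peak after 0.892 Mb, had 192.9 peaks per Mb. Cut into 3 equal parts of 9.63 Mb, Uextra had 308.4 peaks per Mb in the first part and 259.3 in the last, a ratio of 0.841.

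Coverage set the first Mb apart more sharply than the number of peaks did. Peaks covered 43.4% of the first Mb, 25.7% of the second and 18.5% of the third, against 10.7% to 16.4% in windows 4 to 27. Within the first Mb the share was highest at the very start. The first 100 kb were covered to 69.1% by 33 peaks, and the other nine stretches of 100 kb in that Mb to between 30.6% and 51.8%. In the middle of the sequence, from the 11th to the 280th stretch of 100 kb, median coverage was 13.9% (lowest 6.74%, highest 31.7%), and no stretch was without a peak.

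**Figure D1:**
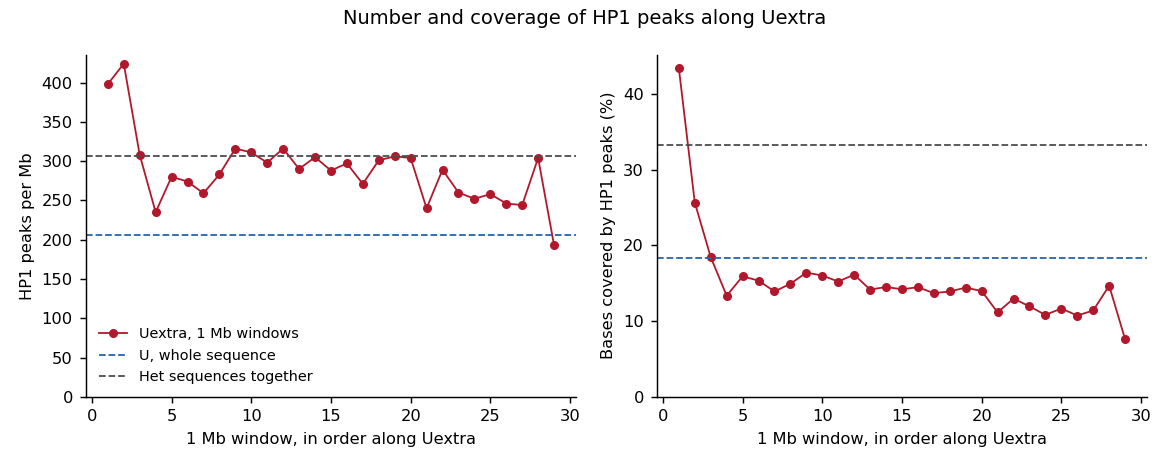
HP1 peaks per Mb (left) and percent of bases covered by peaks (right) in each 1 Mb window along Uextra, with dashed lines for U and for the Het sequences taken whole. The first 2 windows stand above the rest in both panels, and most later windows lie between the lines for U and Het by number but below both by coverage.

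The far end of Uextra was the poorest in peaks. The stretch from 28000 to 28100 kb held 36 peaks, that from 28400 to 28500 kb held 19, and that from 28600 to 28700 kb held 2. The 5 longest stretches without a peak all began at or after position 28434691. The longest ran from 28638173 to 28696204 (58032 bp), the next from 28584249 to 28637965 (53717 bp) and the third from 28840233 to 28891431 (51199 bp), just before the last peak. The remaining pair measured 43299 bp (from 28761388) and 32678 bp (from 28434691). The median score of the whole last window was 25.4, against 22.4 on Uextra as a whole. The sparse stretches from 28600 kb on had medians of 40.4 (2 peaks), 32.5 (5 peaks) and 25.1 (5 peaks).

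Peaks on Uextra spanned a narrower range of widths than those on U and the Het sequences. On Uextra the median width was 475 bp, with quartiles of 329 and 628 bp. It was 498 bp on U (313 and 954) and 579 bp on the Het sequences (325 and 1200). The lower quartiles were thus close together and the upper quartiles far apart. The median differences, -23 bp to U and -104 bp to Het, were -386 and -694 bp with the score limit and -553 and -1400 bp after merging. The 90th percentile was 806 bp on Uextra, 1931 bp on U and 2572 bp on the Het sequences.

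The sets differed in their wide peaks more than in their narrowest ones. Peaks of 300 bp or less made up 20.4% on Uextra, 22.9% on U and 21.2% on the Het sequences. The score limit left few of these narrow peaks: 98 of 1695 on Uextra, 11 of 475 on U and 2 of 601 on Het. Among the peaks left, the direction turned. The share on Uextra was then higher by 1.01 percentage points than on U and by 2.04 than on Het. With all peaks, the share on single Het sequences ran from 17.0% (3LHet) to 41.7% (YHet, 12 peaks). Peaks of over 300 and up to 750 bp made up 66.9% on Uextra but 43.2% on U and 39.4% on Het. Those wider than 1 kb made up 4.92%, 23.3% and 29.95%. Wide peaks therefore held 14.6% of the covered bases on Uextra, compared with 60.7% on U and 70.4% on Het. At the lower end, 102 Uextra peaks had exactly 200 bp, the shortest width in the list.

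**Figure D2:**
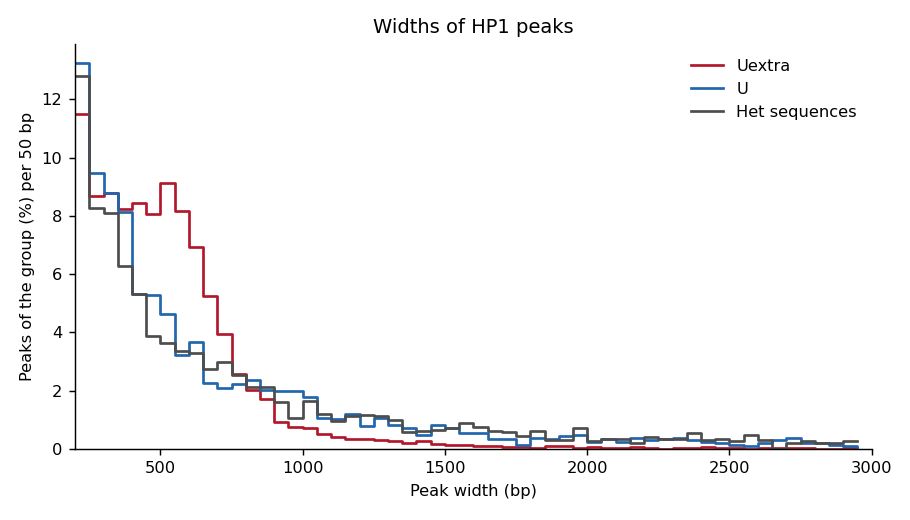
Share of the peaks of Uextra, U and the Het sequences in each 50 bp class of peak width; peaks wider than 3 kb are beyond the axis. The curve of Uextra stays above the others from 400 to 750 bp and lies below them from 850 bp to 2 kb, while U and Het have long tails; the 3 shares of peaks of 300 bp or less lie between 20.4% and 22.9%.

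The broadest HP1 peaks lay at the start of Uextra. Of the 19 peaks of 3 kb or more, 17 were centred in the first 250 kb, and the last ended at position 508187. Of the 58 peaks wider than 2 kb, 48 were centred in the first Mb. The 10 widest all ended within the first Mb. The widest ran from 66444 to 77309 (10866 bp, score 109.8) and the next from 2712 to 11257 (8546 bp, score 44.9). The third, from 126943 to 132954 (6012 bp, score 99.1), was followed after 258 bp by another wide peak, from 133213 to 139035 (5823 bp, score 69.7). The other six were 4275 to 5919 bp wide.

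Beyond the first Mb the 90th percentile of width shortened in small steps along the sequence. The 90th percentile was 2155 bp in window 1, 1057 bp in window 2, 864 bp in window 6, 744 bp in window 11, 653 bp in window 21 and 499 bp in window 29. It was lower than in the window before in 22 of 28 steps, and its rank correlation with the order of the windows was -0.994 over 29 windows. The 99th percentile did not fall steadily: it was 1125 bp in window 7, 1473 bp in window 15 and 1235 bp in window 28. The windows are neighbours on 1 sequence and share the same libraries, so this is a description. The median width was 535 bp in the first of the 3 parts, 470 bp in the second and 442 bp in the last. Its difference between last and first part, -93 bp, was -218 bp with the score limit and -244 bp after merging. The share of peaks of 300 bp or less was nearly level, at 19.6%, 20.9% and 20.7% in these parts.

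The spacing of the peaks on Uextra was regular. Distances between the midpoints of peaks lay close to whole multiples of a fixed length, and this length was shorter in each successive Mb. To measure it, the distances of up to 6 kb between all pairs of midpoints in a 1 Mb window were taken. The period of a window is the length, searched from 500 to 3000 bp, whose multiples they matched best. The match is called concentration here, the mean cosine of the distances expressed as turns of the period. It is 1 when all distances are whole multiples and near 0 when they are irregular. This measure was chosen after the distances had been seen.

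The period was 1408 bp in the first Mb, 1224 bp in the second and 1120 bp in the third. It was 976 bp in window 6, 858 bp in window 11, 814 bp in window 16, 778 bp in window 21, 726 bp in window 26 and 608 bp in the last. Each of the 28 windows after the first had a shorter period than the one before it, and with peak starts 26 did. The steps were longest at both ends of the sequence: 184 bp from the first Mb to the second, 62 bp from window 28 to window 29, and 6 to 12 bp between neighbouring windows from 12 to 26.

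**Figure D3:**
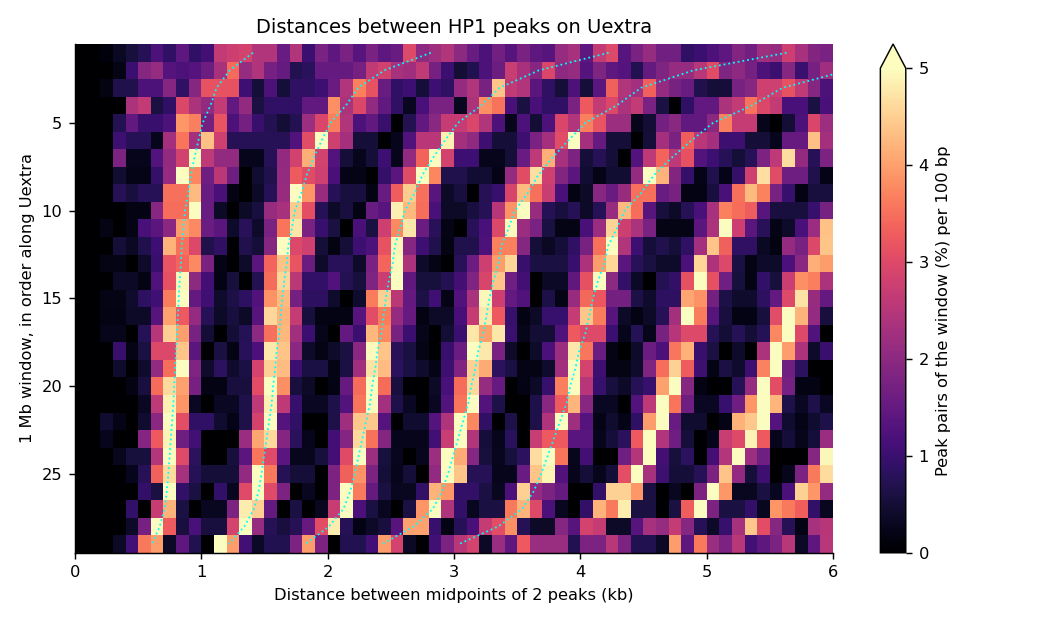
Distances between the midpoints of all pairs of HP1 peaks up to 6 kb apart (x axis) in each 1 Mb window of Uextra (y axis, window 1 on top); colour gives the percent of the window's pairs per 100 bp, and dotted lines mark 1 to 5 times the period of each window. The pairs gather in bright bands at whole multiples of the period, and all bands lean to shorter distances from window 1 (1408 bp) to window 29 (608 bp).

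The regularity was strong through most of Uextra and weak on U and the Het sequences. The concentration was 0.172 and 0.143 in the first 2 windows, 0.2495 to 0.334 in windows 3 to 5 and 0.466 to 0.661 in windows 6 to 27. In windows 28 and 29 it was 0.466 and 0.329. Its median was 0.540 over the 29 windows of Uextra, against 0.0720 over 22 windows of U and the Het sequences, where the highest value was 0.119. As the period is fitted, irregular peaks also give a value above 0. No window of Uextra was at or below that highest U or Het value, but this depends on the setting. With peak starts the highest U or Het value was 0.1997 and 4 of 29 Uextra windows were at or below it. With pairs up to 10 kb it was 0.144 (2 of 29), with the score limit 0.303 (2 of 29), in 500 kb windows 0.203 (2 of 57) and with periods of 300 to 5000 bp 0.340 (6 of 29). The medians stayed apart by at least 0.344 under these 5 settings.

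The share of distances near a whole multiple gives the same comparison in simpler terms. A distance within 0.15 periods of a multiple would be met in 30% of cases if distances were spread evenly. In windows 6 to 27 of Uextra this share was 58.2% to 74.1%. It was lower in windows 1 to 5, at 38.2% to 49.5%, and was 58.3% in window 28 and 45.8% in window 29. On U it was 30.6% to 37.9%. On the Het sequences the median was 33.6%; the highest, 50.0%, came from XHet, with 60 pairs. YHet had too few peaks for a value.

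Counted from peak to peak, the most common single multiple between neighbours in windows 4 to 27 was 1 period. Of 6723 neighbouring pairs, 19.0% lay at 1 period (within 0.25), 14.9% at 2, 11.4% at 3, 10.0% at 4 and 6.87% at 5. A further 26.7% lay farther apart than those at 5 periods, and 1.09% were closer than 0.5 periods. Among the neighbours beyond 0.5 periods, 85.1% lay within 0.25 periods of a whole number. An even spread would give 50% for a period not fitted to these peaks. The median gap from the end of a peak to the start of the next was 332.5 bp for neighbours 1 period apart and 1144 bp for those 2 periods apart.

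The number of peaks per period was also lower further along. The first Mb held 56.0 peaks for every 100 periods, the third 34.5, window 4 25.2, window 16 24.2 and window 27 17.3. The period thus became shorter while the peaks per Mb did not become more frequent. The median gap between neighbours was 1665 bp in the first of the 3 parts of Uextra, 2000 bp in the second and 2362.5 bp in the last.

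Few peaks were wider than the local period. In windows 4 to 27, 6531 of 6723 peaks (97.1%) were no wider than 1 period of their window. The 90th percentile of width was 0.817 to 0.885 periods in each of these windows, although the period itself went from 1072 to 708 bp. In the first Mb this ratio was 1.53, and 20.9% of the peaks there were wider than the period. In window 28 the ratio was 0.927 and 8.55% of the peaks were wider than the period. In window 29 the values were 0.820 and 4.65%. The 192 wider peaks of windows 4 to 27 were not spread evenly in width: 60 measured 1 to 1.2 periods, 31 measured 1.2 to 1.5, and 94 measured 1.5 to 2, with 7 above 2. The positions of scaffold ends within Uextra were not used here, so their part in the spacing and in the limit on the widths was not tested.

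**Figure D4:**
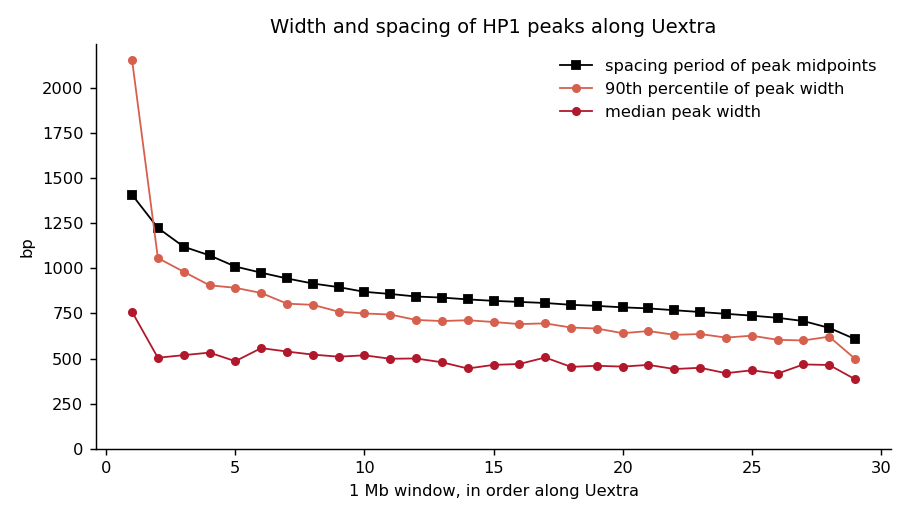
Period of the peak spacing (squares), 90th percentile of peak width and median peak width (circles), all in bp, in each 1 Mb window along Uextra. From window 2 on, the 90th percentile runs below the period and parallel to it, at 0.817 to 0.927 of it.

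Gaps between neighbouring peaks were longer at the median on Uextra than on U and the Het sequences. Scaffold ends were not used, so a gap on Uextra or U may cross a join between scaffolds. The part of such joins in the gaps, in the chains below and in the merging of peaks was not tested. The median gap on Uextra was 1961.5 bp (quartiles 728 and 3984 bp), compared with 1022 bp on U and 538 bp on the Het sequences. Very long gaps were rarer than on U. The 95th percentile was 9059 bp on Uextra and 16941 bp on U, and the longest gap was 58032 bp on Uextra and 131169 bp on U.

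Chains of peaks, in which neighbours are less than 1 kb apart, were small on Uextra. Peaks standing alone made up 49.9% of its peaks, against 27.4% on U and 14.4% on the Het sequences. Chains of 5 or more peaks held 4.59% of Uextra peaks, 23.8% of U peaks and 46.5% of Het peaks. The 5 Uextra chains with most peaks all lay in the first Mb. The largest, from 492260 to 515252, had 14 peaks over 22993 bp with 76.8% of its bases covered. The next, from 325918 to 345890, had 13 peaks, and the first peaks of the sequence formed a chain of 8 from 1734 to 20190, covered to 86.5%. The remaining pair had 9 peaks, from 382938 to 393762, and 8 peaks, from 428774 to 442002.

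The median score on Uextra was slightly higher than on U and on the pooled Het sequences, but equal to that on 3LHet. The score is the authors' own value for each peak. No header or label defines it, and it is used only within this list. Its median was 22.4 on Uextra (quartiles 14.3 and 35.2), 18.6 on U and 19.1 on the Het sequences. The differences, 3.77 and 3.33, depend on which peaks are counted: with peaks under 1 kb apart merged they were 0 and -1.04. Single Het sequences differed from each other. The 847 peaks of 3LHet had a median of 22.4 and an upper quartile of 38.1. The medians of the other Het sequences ran from 13.5 (XHet) to 19.1 (2LHet). Along Uextra the median score had no steady course. It was 27.7 in the first Mb, between 20.0 and 23.4 in windows 2 to 26, and 25.9, 26.4 and 25.4 in the last 3 windows.

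Uextra peaks had higher scores than U or Het peaks of like width. On all 3 sets wider peaks had higher scores, with rank correlations of 0.750 on Uextra, 0.800 on U and 0.849 on Het across peaks, which share libraries and positions. For widths over 300 and up to 500 bp the median score was 18.6 on Uextra, 16.0 on U and 14.7 on Het. For those up to 750 bp it was 30.7, 21.0 and 19.5. The difference was widest in proportion for those up to 1000 bp, at 44.1, 25.7 and 22.9. In the widest class, over 2 kb, the medians were 70.6, 56.4 and 58.4, from 58, 193 and 399 peaks.

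**Figure D5:**
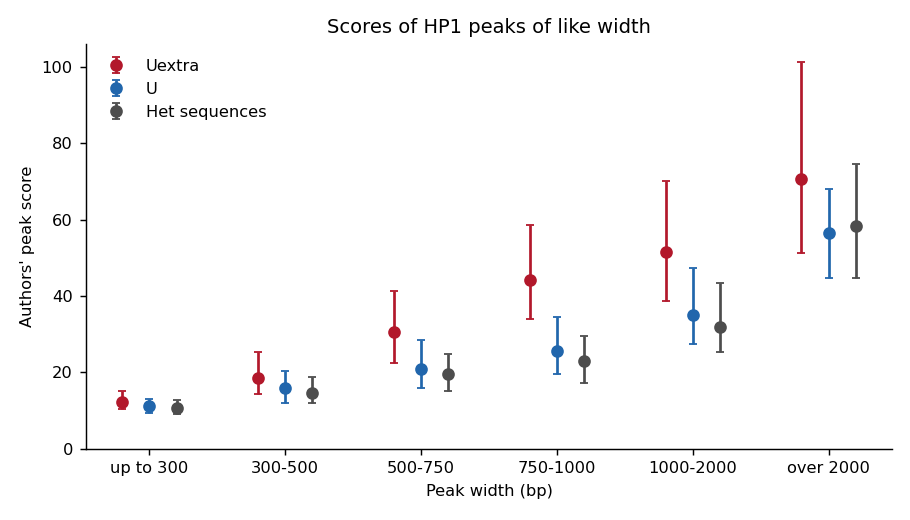
Median of the authors' peak score (points) with its quartiles (bars) for peaks of Uextra, U and the Het sequences in 6 classes of peak width. Uextra has the highest median in each class, from 12.3 against 11.1 and 10.8 at 200 to 300 bp to 44.1 against 25.7 and 22.9 at 750 to 1000 bp; the quartile ranges of Uextra and U overlap in all 6 classes, and those of Uextra and Het in all but 750 to 1000 bp.

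The narrow peaks of 300 bp or less stood further from their neighbours than those on U and Het. The 1695 narrow peaks of Uextra had a median score of 12.3, against 11.1 on U and 10.8 on Het. Of these, 98 (5.78%) reached 20.96, the median score of the list, whereas 11 of 475 on U (2.32%) and 2 of 601 on Het (0.333%) did. Their nearest neighbour lay at a median gap of 944 bp on Uextra, 397 bp on U and 341 bp on Het. With no neighbour within 1 kb stood 48.7%, 28% and 22.0%. The wider peaks of Uextra were about as isolated, with a median of 1004 bp. Narrow and wider peaks were also much alike on U (397 and 355 bp), and less so on Het (341 and 238 bp). The 5 narrow Uextra peaks with the highest scores had scores of 86.6 to 101.1. They were from 26566241 to 26566509 (269 bp, score 101.1), from 13509096 to 13509295 (200 bp, 89.4), from 13533374 to 13533637 (264 bp, 88.5), from 4874898 to 4875194 (297 bp, 87.5) and from 26346379 to 26346628 (250 bp, 86.6).

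The highest scores of Uextra were gathered at its start, but less so than the widest peaks. Of its 10 highest scores, 4 lay in the first Mb, which held 398 of the 8329 peaks. The rest lay between 1.55 and 24.7 Mb. The highest, 212.8, belonged to a peak of 1362 bp from 747378 to 748739. The next, 183.4, lay from 7709908 to 7710672 and was 765 bp wide. Scores of 176.8 (1549510 to 1550582) and 172.4 (24652193 to 24653006) followed. A pair of broad peaks was among the 10, from 497249 to 500631 (score 170.3) and from 212868 to 217036 (score 168), and 4 of the 10 were under 1 kb wide. The remaining 4 had scores of 168.5 (from 14970253), 167.9 (from 10975760), 150.4 (from 21942534) and 150.3 (from 863694). Uextra held 36 of the 100 highest scores of the list and 459 of the 1000 highest, compared with 52.9% of all peaks.

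Peaks that follow each other in the order of Uextra did not resemble each other in score. The rank correlation between the score of a peak and that of the next was 0.00877 over 8328 neighbouring pairs, compared with 0.109 on U and 0.137 on the Het sequences. Peaks that follow each other on Uextra or U may lie on different scaffolds, and the part of this in these values was not tested. The values describe peaks along sequences and carry no test.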

How the data were processed

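The series holds 3 samples (1 input, 2 HP1 ChIP) and 1 deposited list of peaks for all of them. Per the file headers, positions refer to FlyBase r5 and the caller was MACS. BWA, MACS2 and 2 versions of CASAVA (1.7.0.2, 1.7.0.3) are named in the submitters' processing notes. Parameters and any pooling of replicates were not stated. The authors' score has no stated scale. Starts count from 0 in the list, and positions are printed counting from 1. No genome sequence was used here, so no base sequence is shown.

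The end of the last peak served as sequence length, and peaks were assigned to windows by midpoint. Periods were searched in steps of 2 bp, with at least 50 pairs per window. The routines were tested on simulated positions. Python 3.11.15, numpy 2.4.6 and pandas 2.3.3 were used. All members, lists and measures were chosen with earlier results of these data known. Regions named are the 10 highest scores, the 10 widest peaks, the 5 narrow peaks of highest score, the 5 chains with most peaks, the 5 longest stretches without a peak and the extreme windows. Alternatives were a score limit, merging within 1 kb, 2 in place of 3 equal parts, log2 means, a 250 bp limit for narrow peaks and covered bases. Those for the spacing were added after seeing the data.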

Additional observations from a re-analysis of the deposited data

How the results depend on the processing

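No replicate could be left out, because the list does not mark replicates. No paired analysis was possible because the result comes from no test and the list carries no replicate columns. Without read depth, nothing shows how firmly a single peak was called, and the causes of the shifts below were not tested. With a score of at least 20.96, the last minus the first of 3 equal parts of Uextra was -218 bp in median width and -4.4 in median score (0.035 with all peaks). Uextra minus U was then -386 bp and 0.56 in score, Uextra minus Het -694 bp and 0, the narrow share differed by 1.01 and 2.04 percentage points (-2.60 and -0.879 with all peaks), and the density ratios were 1.68 to U and 1.11 to Het. With peaks under 1 kb apart merged, the last part over the first was 0.960 in density, and their difference was -244 bp in width and -1.56 in score. Uextra minus U was -553 bp and 0 in score, Uextra minus Het -1400 bp and -1.04, and the density ratios were 1.94 and 1.85. With 2 equal parts in place of 3, the last minus the first was -67.5 bp in width. As means of log2 values, Uextra minus U was -0.34 in width and 0.17 in score, and minus Het -0.53 and 0.14. By covered bases the ratios were 0.831 and 0.458. The median concentration of Uextra minus that of U and Het, 0.468 as reported, was 0.344 with peak starts, 0.479 with pairs up to 10 kb, 0.466 with the score limit, 0.465 in 500 kb windows and 0.453 with periods of 300 to 5000 bp. The period was shorter than in the window before in 26 of 28 windows with peak starts, and in all 28 with pairs up to 10 kb, the score limit and the wider range of periods. In 500 kb windows it was shorter in 52 of 56 steps.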

Other observations

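Towards the far end of U the upper range of peak widths was lower. The 90th percentile of width on U was 2155 bp in its window 8, 1335 bp in window 9 and 1002 bp in window 10, and the widest peak of window 10 was 1321 bp. Window 2 of Uextra had a 90th percentile of 1057 bp and a widest peak of 2448 bp. The spacing concentration of those 3 windows of U was 0.119, 0.113 and 0.0585.

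Scores took few distinct values throughout the list. Its 15755 peaks shared 1884 scores. The 8329 peaks of Uextra shared 1094, the 2070 of U 331 and the 2831 of the Het sequences 471. On Uextra, 69.7% of the peaks had a score held by 50 or more Uextra peaks. The most common score there, 13.87, belonged to 165 peaks.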
